A study of Bos taurus with 12 samples.

Results

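The miR-199 and miR-214 family was described in small RNA libraries from mammary gland biopsies of 12 multiparous Chinese Holstein cows. Members were the rows of the deposited table whose mature name is miR-199 or miR-214, with any letter or arm, and where a mature miRNA was listed with several precursors the entry with the highest mean was kept. This rule gave 5 of the 388 mature miRNAs in the table: bta-miR-199a-3p, bta-miR-199a-5p, bta-miR-199b, bta-miR-199c and bta-miR-214. They came from 7 entries of the table, which belong to 5 precursors. HP and LP are lactating cows whose milk had a high or a low protein percentage, and HD and LD are cows of the same 2 phenotypes while not lactating, when the gland is dry before the next calving. Each group held 3 libraries, each from a different cow, and the animals had received no treatment that the labels name. The tissue was a whole biopsy that was not inspected visually, so it can hold secretory epithelium, connective tissue, vessels and blood in unknown shares. The groups, and so the sign of every phenotype difference below, rest on the column names of the deposited table and the sample titles alone. Whether these names assign the phenotypes correctly was not settled here, and with the names exchanged each such sign would turn.

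A miRNA is cut from a hairpin precursor, and either strand of the stem can be loaded into the silencing complex, where it pairs with target mRNAs. The strand from the 5p side of the hairpin comes first in the transcript, and that from the 3p side comes second. In mammals miR-199a and miR-214 are best known as a pair made from 1 long transcript that runs opposite to the dynamin 3 gene, and they are abundant in fibroblasts and other mesenchymal cells and low in epithelium. They have been studied most in connective tissue growth and fibrosis, while in the mammary gland the milk-secreting epithelium sits in such a stroma.

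In the RefSeq annotation of cattle (ARS-UCD2.0) the genes of 4 of the 5 precursors lie within genes of the dynamin family. MIR199A-1 and MIR214 lie on chromosome 16 inside the span of DNM3, and both also overlap the long non-coding RNA LOC132342463. MIR199A-2 lies inside DNM2 on chromosome 7 and MIR199B inside DNM1 on chromosome 11, so DNM1, DNM2 and DNM3 each hold at least 1 miR-199 gene. MIR199C lies apart from them, inside NUP88, a nuclear pore gene, on chromosome 19. Other miRNA genes overlap these loci, namely MIR3120 at MIR214, MIR3604-1 at MIR199A-2 and MIR3604-2 at MIR199B, and none of them had a value in the deposited table. The files use an earlier assembly, so positions are not given.

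Reads of closely related sequences cannot always be assigned to 1 gene. The reads of bta-miR-199a-3p were listed at both MIR199A-1 and MIR199A-2, and the values of the second entry were 0.706% to 1.67% below those of the first. For bta-miR-199a-5p the 2 entries differed by at most 0.0120%. The expression of the 2 miR-199a genes was therefore not separated in these values, and the values below are for the mature miRNA. Reads may also be shared between miR-199a, miR-199b and miR-199c, through equal sequence or the 1 mismatch allowed in mapping. They may be counted at more than 1 of these or under the name of another, which was not tested.

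The libraries rest on 6026797 to 23577942 reads counted over all entries, as inferred from the steps between the deposited values, and 3 reads correspond to 0.127 to 0.498 TPM. TPM here is a count scaled to the library's total over all entries of the table (RPM), without a correction for length. The values are rounded to 2 decimals, and a stricter check of their low values did not accept them as whole reads, so depths, floors and read-based intervals are approximate and no count model was run. The lowest value of any member, 36.1 TPM for bta-miR-214 in LP3, lies far above that floor. Counting error is therefore small for all 5 members, and the spread between cows sets the precision. Tests used TPM scaled by 1 median-of-ratios factor per library. These factors were lowest in LD2 (0.764) and highest in HD1 and LD1.

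The family was led by the 3p arm of miR-199a in every library. In HP, bta-miR-199a-3p was at 6303, 11123 and 8326 TPM in HP1, HP2 and HP3. In LP it was at 5073, 10070 and 7513 TPM in LP1, LP2 and LP3. The values of these 2 groups overlapped. In HD the values were 16148, 18347 and 10676 TPM in HD1, HD2 and HD3, and in LD they were 15678, 13026 and 7463 TPM in LD1, LD2 and LD3. The 4 highest values of the 12 were all from non-lactating cows, while HD3 and LD3 were within the range of lactation. Over all libraries bta-miR-199a-3p averaged 10812 ± 4222 TPM (SD, n = 12) and held place 15 among the 388 miRNAs by mean.

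The 5p arm of the same hairpin, bta-miR-199a-5p, was lower and more uneven. It was at 1701, 2130 and 1846 TPM in HP1 to HP3 and at 1619, 2256 and 1622 TPM in LP1 to LP3. It was at 3876, 3199 and 668 TPM in HD1 to HD3 and at 3484, 966 and 386 TPM in LD1 to LD3. The lactation values lay close together, with a coefficient of variation of 14.6%. The non-lactating values, with a coefficient of variation of 75.6%, spread on both sides of them, since HD1, HD2 and LD1 lay above all 6 lactation libraries and HD3, LD2 and LD3 lay below all 6. No other member spread as widely in the non-lactating period, where the coefficient of variation was 29.5% for bta-miR-199a-3p, 32.3% for bta-miR-199b, 26.3% for bta-miR-199c and 33.0% for bta-miR-214.

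The mature miRNA listed for the miR-199b gene, bta-miR-199b, was about as abundant as bta-miR-199a-5p. Whether reads from the other strand of that hairpin are counted at another member was not tested. Its values were 1631, 2024 and 1894 TPM in HP1 to HP3 and 1076, 1980 and 1366 TPM in LP1 to LP3. In the non-lactating period they were 2693, 2490 and 1574 TPM in HD1 to HD3 and 2068, 1616 and 1052 TPM in LD1 to LD3. All 4 groups overlapped, and the means were 1849 ± 201 (HP), 1474 ± 462 (LP), 2252 ± 596 (HD) and 1579 ± 509 TPM (LD, SD, n = 3 each).

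The remaining members were expressed at lower levels. The values of bta-miR-199c were 149, 289 and 271 TPM in HP1 to HP3, 165, 372 and 251 TPM in LP1 to LP3, 446, 513 and 298 TPM in HD1 to HD3 and 427, 389 and 237 TPM in LD1 to LD3. Within each group the libraries had the same order as for bta-miR-199a-3p. For bta-miR-214 the values were 49.1, 46.6 and 58.9 TPM in HP1 to HP3 and 40.8, 98.7 and 36.1 TPM in LP1 to LP3. In the non-lactating period bta-miR-214 was at 160, 195 and 115 TPM in HD1 to HD3 and at 148, 123 and 65.0 TPM in LD1 to LD3. Without LP2, every lactation value of bta-miR-214 lay below every non-lactating value.

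By mean over the 12 libraries the order was bta-miR-199a-3p (place 15 of 388), bta-miR-199a-5p (44), bta-miR-199b (48), bta-miR-199c (94) and bta-miR-214 (134). The neighbours bta-miR-199a-5p and bta-miR-199b did not differ beyond their spread, with means of 1979 ± 1091 and 1789 ± 506 TPM (SD, n = 12), and bta-miR-199a-5p was the lower of these 2 in HP3, HD3, LD2 and LD3. The other neighbours kept their order in all 12 libraries. The 3p arm of miR-199a made up 67.3% ± 3.01 of the summed TPM of the 5 members in lactating cows and 76.2% ± 5.13 in non-lactating ones (SD, n = 6 each). The share of bta-miR-214 was 0.464% ± 0.134 and 0.748% ± 0.0717.

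**Figure D1:**
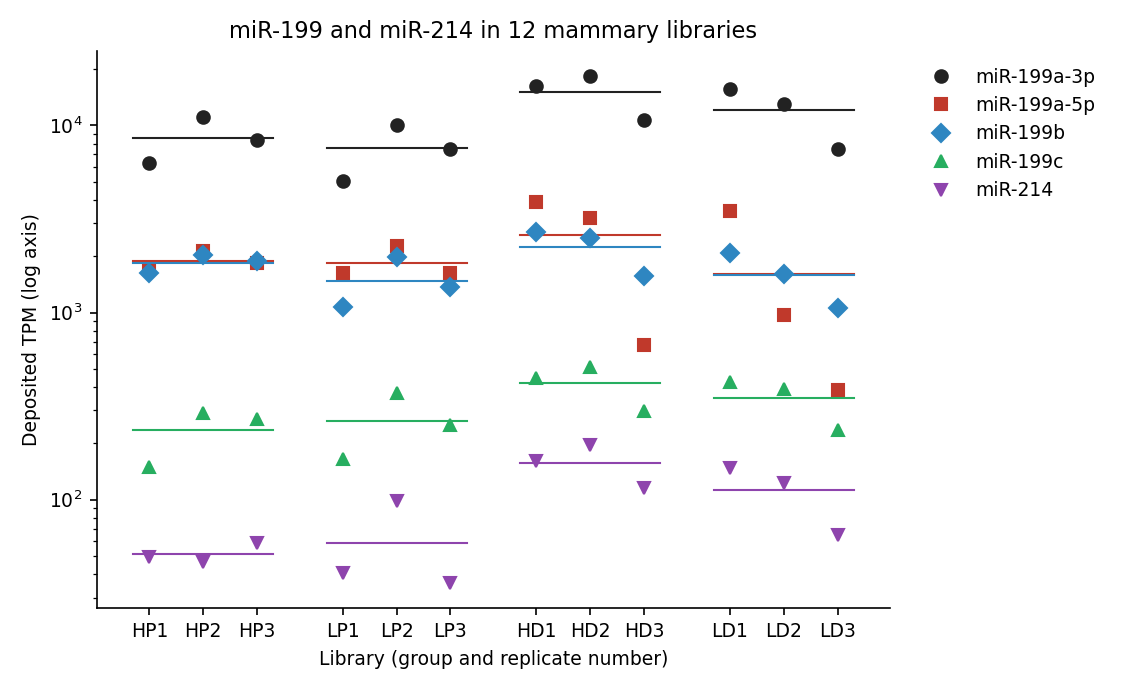
Deposited TPM on a log axis for the 5 members in each of the 12 libraries, with 1 point per library and a line at the mean of each group of 3. miR-199a-3p is highest in every library, the miR-199a-5p points spread from 386 to 3876 TPM in the non-lactating groups HD and LD, and the miR-214 points are higher in HD and LD than in HP and LP except for LP2 at 98.7 TPM.

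The ratio of the 2 arms of miR-199a within a library does not depend on scaling between libraries. Reads that related hairpins may share, as noted above, could enter it. In lactation the log2 ratio of 5p to 3p was -1.89, -2.38 and -2.17 in HP1 to HP3 and -1.65, -2.16 and -2.21 in LP1 to LP3. In the non-lactating period it was -2.06, -2.52 and -4.00 in HD1 to HD3 and -2.17, -3.75 and -4.27 in LD1 to LD3. Thus HD1, HD2 and LD1 lay at or near the lactation range, and HD3, LD2 and LD3 lay more than 1 log2 unit below every other library. The 5p arm made up 5.89% of the reads of both arms in HD3, 6.90% in LD2 and 4.92% in LD3, against 14.8% to 24.2% in the other 9 libraries. The exact Clopper-Pearson 95% intervals, which rest on the inferred reads and cover counting error only, were 5.80% to 5.98% in HD3, 6.81% to 6.99% in LD2 and 4.82% to 5.03% in LD3. In the study's list of cows, HD3, LD2 and LD3 are the non-lactating animals sampled nearest to calving. That list was looked up after the ratios were seen. The same 3 libraries held 23577942, 21521275 and 20895761 inferred reads, against 11047701 in HD1, 22038570 in HD2 and 14327050 in LD1. Lactation libraries held 6026797 to 13374171. The split was not particular to the miR-199a arms. For bta-miR-331-3p, HD3, LD2 and LD3 were at 24.0, 30.2 and 19.4 TPM, and HD1, HD2 and LD1 at 147, 103 and 161 TPM. The part of nearness to calving and of depth in the ratios was not tested.

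Between the stages the log2 arm ratio averaged -2.08 ± 0.264 over lactating and -3.13 ± 0.989 over non-lactating cows (SD, n = 6 each), a difference of 1.05 with overlapping values. An exact two-sided permutation test gave p = 0.0390 for this difference, and over the 3 comparisons of the ratio the Benjamini-Hochberg adjusted value was 0.117, which did not pass. Without HD3, LD2 and LD3 it was 0.172, which is a description with no test, since these 3 were chosen for their low ratios and leaving them out had to shrink it. Leaving out any 1 of HP1, HP3, LP1, LP2, HD2, HD3, LD2 and LD3 also took the unadjusted p above 0.05, to between 0.0519 and 0.0779 by the exact permutation test. Between HP and LP the ratio was -2.15 ± 0.248 and -2.01 ± 0.311 (SD, n = 3 each). Between HD and LD the means were -2.86 and -3.40, with the wide spread given above. The exact permutation p was 0.6 for HP and LP and 0.7 for HD and LD, where 3 against 3 cannot give less than 0.1.

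Of the hairpins in the table, 38 had both arms listed. The SD of the log2 arm ratio over the 12 libraries was 0.881 for miR-199a, against a median of 0.602 over the 38, and 9 hairpins had a larger SD. Among the 19 hairpins with both arms at a mean of at least 10 TPM the median was 0.698, and 5 had a larger SD. The spread of the miR-199a arms was thus above the median of hairpins and not the largest.

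**Figure D2:**
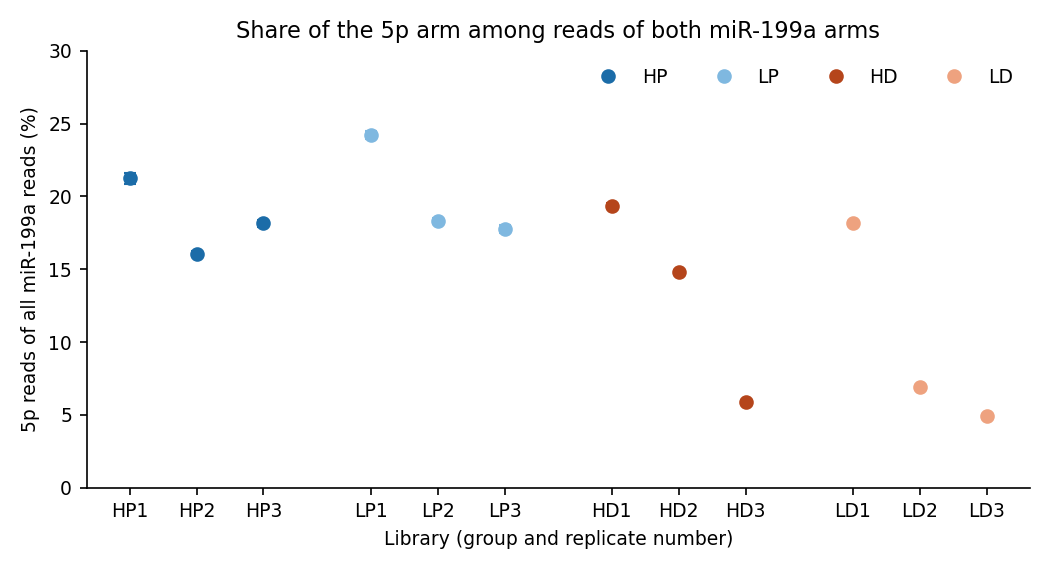
Percent of the reads of both miR-199a arms that came from the 5p arm in each library, with bars for the exact 95% interval, which covers counting error only and is mostly smaller than the points. HD3, LD2 and LD3 lie between 4.92% and 6.90%, and the other 9 libraries lie between 14.8% and 24.2%.

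Between the stages the means of the other ratios within the family differed by less than those of the arm ratio. The log2 ratio of bta-miR-199b to bta-miR-199a-3p was between -2.46 and -1.95 in lactation and between -3.01 and -2.58 in the non-lactating period, with no overlap. Its means were -2.26 ± 0.199 and -2.83 ± 0.148 (SD, n = 6 each). The ratio of bta-miR-199c to bta-miR-199a-3p had stage means of -5.04 ± 0.245 and -5.12 ± 0.0856. Between HP and LP its means were -5.20 ± 0.238 and -4.87 ± 0.0953 (SD, n = 3 each), with overlapping values, a larger difference than that of the arm ratio there. The ratio of bta-miR-214 to bta-miR-199a-3p was -7.23 ± 0.472 in lactating and -6.67 ± 0.116 in dry glands. Within the non-lactating period this last ratio was -6.66 to -6.53 in HD and -6.84 to -6.72 in LD, without overlap. The log2 ratio of bta-miR-199a-5p to bta-miR-199b was -0.04 to 0.07 in HP and 0.19 to 0.59 in LP, also without overlap, and it spread from -1.45 to 0.75 over the non-lactating libraries. These 4 ratios are a description and were not tested. Values of 3 against 3 separate completely by chance with a probability of 0.1 in each comparison. Of the 388 single miRNAs, 17.3% did not overlap between HP and LP, 7.22% between HD and LD and 15.2% between the stages.

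Whether the family differs with milk protein percentage in lactation was asked by comparing HP with LP. None of the 5 members was differentially expressed (DE, unadjusted p below 0.05 with a log2 fold change above 0.8 in either direction), where 10.1% of the 388 miRNAs were DE. None had values that did not overlap between HP and LP, against 17.3% of the 388. The log2 fold change of LP over HP, on the log2(normalised TPM + 1) scale, was -0.17 (SE 0.281) for bta-miR-199a-3p and -0.02 (SE 0.233) for bta-miR-199a-5p. It was -0.33 (SE 0.237) for bta-miR-199b, 0.17 (SE 0.317) for bta-miR-199c and 0.07 (SE 0.358) for bta-miR-214. The adjusted p-values of limma ranged from 0.598 for bta-miR-199b to 0.984 for bta-miR-199a-5p. Only for bta-miR-199b was the estimate larger than its SE. The directions of bta-miR-199a-3p, bta-miR-199a-5p, bta-miR-199c and bta-miR-214 turned when 1 library was left out, and for bta-miR-214 this was LP2, without which its log2 fold change was -0.28.

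The same question in the non-lactating period was asked by comparing HD with LD. Again none of the 5 members was DE, against 3.35% of the 388, and none was without overlap, against 7.22%. In both comparisons of phenotype these calls are those of limma on scaled TPM. A count model, which was not run here, may call other miRNAs, members among them. All 5 point estimates were below 0, with a log2 fold change of LD over HD of -0.11 (SE 0.346) for bta-miR-199a-3p, -0.65 (SE 0.697) for bta-miR-199a-5p and -0.29 (SE 0.288) for bta-miR-199b. It was -0.03 (SE 0.327) for bta-miR-199c and -0.29 (SE 0.347) for bta-miR-214. The adjusted p of limma was 0.993 for each of the 5. The estimate for bta-miR-199a-5p rested on few libraries, since it ranged from -1.30 to -0.07 as single libraries were left out. Without size factors all 5 estimates were lower, at -0.35, -0.89, -0.53, -0.26 and -0.53 in the same order, while the median of all miRNAs moved from 0.03 to -0.16.

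The clearest difference in the family was between the stages. Lower values in lactation passed the test for bta-miR-214 and bta-miR-199a-3p, so 2 of 5 members were called, where 44.3% of the 388 miRNAs were called in either direction and 22.2% were called lower in lactation. With 5 members this count is near the background, and the result is that of the 2 miRNAs named. The mean of bta-miR-214 was 55.0 ± 22.7 TPM over lactating and 134 ± 44.3 TPM over non-lactating cows (SD, n = 6 each). Its log2 fold change of lactation over non-lactating was -1.17 (SE 0.247, adjusted p = 0.00234 by limma), and it stayed between -1.33 and -1.02 as single libraries were left out, with a highest adjusted p of 0.00850. Without HD3, LD2 and LD3 it was -1.15 (adjusted p = 0.0183 by limma).

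For bta-miR-199a-3p the means were 8068 ± 2272 and 13556 ± 3997 TPM (SD, n = 6 each). The log2 fold change was -0.63 (SE 0.217, adjusted p = 0.0333 by limma). This call was lost when any 1 of HP1, HP3, LP1, LP3, HD2, HD3 and LD2 was left out, with adjusted p-values of 0.0525 to 0.0920, and the log2 fold change stayed between -0.75 and -0.50. Without HD3, LD2 and LD3 the log2 fold change was -0.60. This is given without a test, since these libraries were chosen by a ratio that holds bta-miR-199a-3p.

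The other 3 members did not pass. The log2 fold change of bta-miR-199c was -0.54 (SE 0.231, adjusted p = 0.0778 by limma), with means of 250 ± 82.7 TPM in lactating cows and 385 ± 101 TPM in the non-lactating period. That of bta-miR-199b was -0.06 (SE 0.173, adjusted p = 0.794 by limma). That of bta-miR-199a-5p was 0.42 (SE 0.392, adjusted p = 0.402 by limma), the only estimate above 0. It was 0.11 without HD3, 0.14 without LD3 and 0.69 without LD1. Without HD3, LD2 and LD3 together it was -0.45, which is given without a test, since these are the libraries in which this arm lay below all lactation values and leaving them out had to lower the estimate. No member had values without overlap between the stages, against 15.2% of the 388. In a biopsy, fewer cells of a type and less of the miRNA per cell cannot be told apart.

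**Figure D3:**
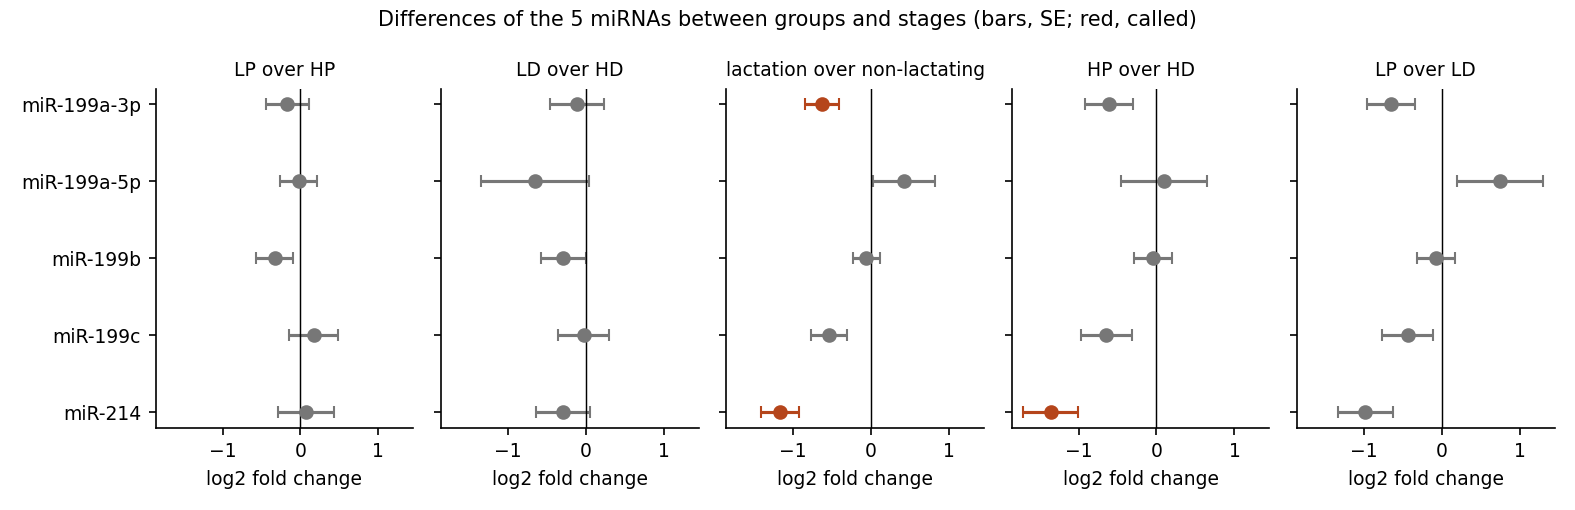
Log2 fold change of each member in 5 comparisons on the log2(normalised TPM + 1) scale, with bars of 1 SE, red where the call passed and grey where it did not. Only miR-214 (-1.17) and miR-199a-3p (-0.63) in lactation over non-lactating, and miR-214 (-1.36) in HP over HD, are red.

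The stage difference was also taken within each phenotype. Among cows with a high protein percentage (HP over HD), bta-miR-214 was lower in lactation by a log2 fold change of -1.36 (SE 0.349, adjusted p = 0.0112 by limma), and it was the only member called, where 31.2% of all miRNAs were called and 16.5% were called lower. Without HD2 its adjusted p by limma was 0.0564. Among cows with a low protein percentage (LP over LD) no member was called, where 22.2% of all miRNAs were called and 10.1% were called lower. There bta-miR-214 was at -0.98 (SE 0.349, adjusted p = 0.0620 by limma), and without LP2 it was at -1.31 (adjusted p = 0.0268 by limma). For bta-miR-199a-3p the 2 values were -0.61 (SE 0.307) and -0.65 (SE 0.307), with adjusted p-values of limma of 0.154 and 0.156. Those of bta-miR-199c were -0.64 and -0.43 (SE 0.327 each), and those of bta-miR-199b were -0.05 and -0.08 (SE 0.245 each). For bta-miR-199a-5p they were 0.10 and 0.74 (SE 0.554 each).

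Whether the phenotype difference depends on stage was tested directly as an interaction. No member passed, and neither did any of the 388 miRNAs (0% called), although 20 had an unadjusted p under 0.05 and the smallest adjusted p of limma was 0.288. The interaction, the difference of LP over HP minus that of LD over HD, was 0.64 (SE 0.784) for bta-miR-199a-5p and 0.38 (SE 0.493) for bta-miR-214, and between -0.04 and 0.21 for the other 3 members, each with an adjusted p of 0.993.

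The members were next compared with each other over the libraries, on the log2(normalised TPM + 1) scale and as a description, since the libraries share stage and scaling. Reads that miR-199a, miR-199b and miR-199c may share, as noted above, could enter the values here and below, which was not tested. The levels of bta-miR-199a-3p and bta-miR-199c followed each other most closely, with Pearson's r = 0.92 and Spearman's rho = 0.84 over 12 libraries. Within lactation r was 0.77, and within the non-lactating period it was 0.97. For bta-miR-199a-3p and bta-miR-214, r was 0.82, with 0.09 within lactation and 0.97 within the non-lactating period. In lactation, HP2 was among the highest libraries for bta-miR-199a-3p and among the lower ones for bta-miR-214. For bta-miR-199a-3p and bta-miR-199b, r was 0.68, with 0.76 and 0.91 within the stages.

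Over the 12 libraries the 2 arms of miR-199a did not follow each other, with Pearson's r = -0.01 and Spearman's rho = 0.09 (permutation p = 0.975 and 0.784). Within each stage their r was above 0, and in lactation it was above that of bta-miR-199a-3p with bta-miR-214 (0.09). Within lactation Pearson's r was 0.51 and Spearman's rho 0.26 over 6 libraries (exact permutation p = 0.322 and 0.658). Within the non-lactating period r was 0.35 and rho 0.37 over 6 libraries (exact permutation p = 0.519 and 0.497). With Benjamini-Hochberg adjustment over the 3 sets the values were 0.779 for both r and 0.784 for both rho, and without the 2 libraries farthest from the median of bta-miR-199a-3p r was 0.53 and 0.26. These values depended on the scaling, since without size factors r was 0.87 in lactating cows, 0.94 in non-lactating ones and 0.46 over all 12 libraries. For the other pairs of members r was not taken without size factors.

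**Figure D4:**
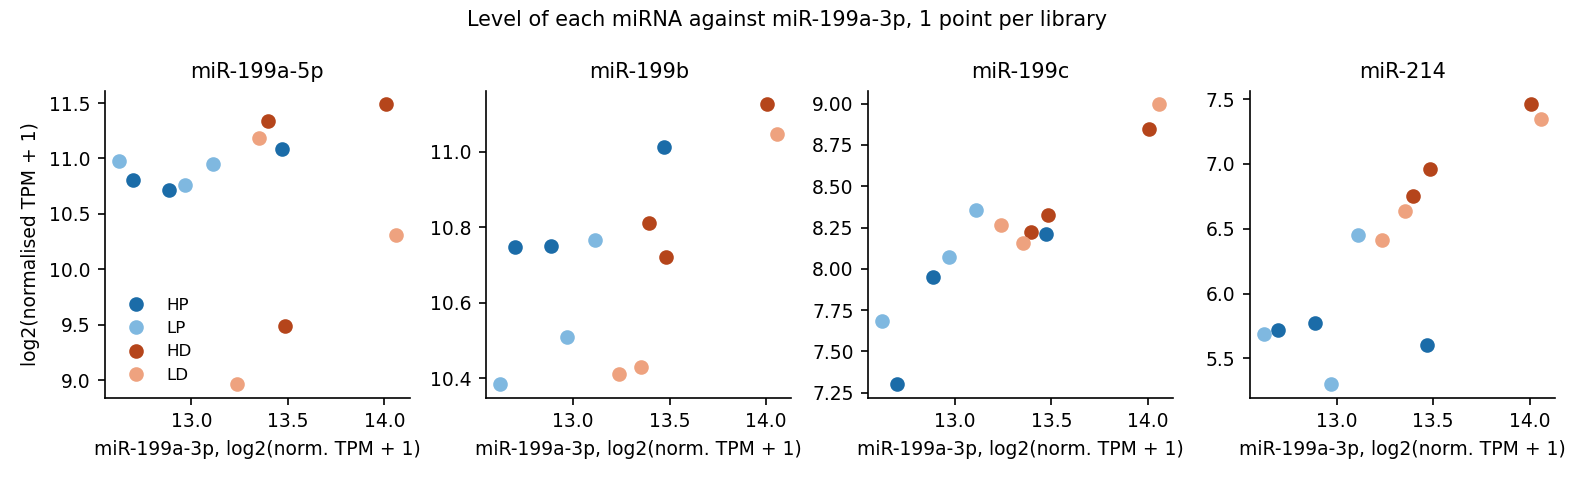
Log2(normalised TPM + 1) of 4 members against that of miR-199a-3p, with 1 point per library coloured by group. The points of miR-199c lie near a line (r = 0.92), those of miR-214 do so in HD and LD (r = 0.97), and for miR-199a-5p 2 points, HD3 and LD3, lie far below the rest.

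The miRNAs most like each member were taken among those with a mean of at least 10 TPM, 233 beside the member itself, by Pearson's r over the 12 libraries. For bta-miR-199a-3p they were bta-miR-221 (r = 0.93), the member bta-miR-199c (0.92), bta-miR-874 (0.86), bta-miR-193b (0.85) and bta-miR-504 (0.85). Within lactation r of these 5 lay between 0.27 (bta-miR-193b) and 0.85, and within the non-lactating period between 0.64 and 0.97. The stages differ in level, so r over all 12 libraries also holds that shared difference. The lowest r values of bta-miR-199a-3p were with bta-miR-200a (-0.85), bta-miR-30f (-0.85) and bta-miR-200c (-0.84). The miR-200 family is known for keeping epithelial cells in their epithelial state. The mean of bta-miR-200a was 4114 TPM in lactating cows and 1915 TPM in the non-lactating period, and that of bta-miR-221 was 393 and 742 TPM.

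For bta-miR-199c the highest were bta-miR-221 (r = 0.93), bta-miR-199a-3p (0.92), bta-miR-193b (0.86), bta-miR-708 (0.79) and bta-miR-181c (0.78), and the lowest were bta-miR-30f (-0.81), bta-miR-200a (-0.79) and bta-miR-11976 (-0.76). Within lactation r of the 5 highest lay between 0.75 and 0.95, and within the non-lactating period between 0.52 and 0.97. For bta-miR-214 the highest were bta-miR-193b (r = 0.89), bta-miR-154c (0.87), bta-miR-221 (0.87), bta-miR-181d (0.85) and bta-miR-93 (0.85). In the same order, r of bta-miR-214 with them was 0.38, 0.65, 0.51, 0.17 and 0.64 within lactation. Within the non-lactating period r of bta-miR-214 with them was 0.72, 0.22, 0.79, 0.33 and 0.05. Its lowest were bta-miR-2336, bta-miR-148a and bta-miR-33a (-0.92 each). Thus bta-miR-221 and bta-miR-193b were among the 5 most alike for these 3 members over the 12 libraries. Among the lowest for bta-miR-214, bta-miR-148a is known as an abundant miRNA of milk and the mammary gland. It averaged 154416 TPM in lactating cows and 25845 TPM in the non-lactating period.

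The profiles most like bta-miR-199a-5p were others. They were bta-miR-331-3p (r = 0.84), bta-miR-12030 (0.75), bta-miR-877 (0.74), bta-miR-149-5p (0.73) and bta-miR-484 (0.72), and the lowest were bta-miR-6524 (-0.83), bta-miR-192 (-0.78) and bta-miR-502b (-0.76). Within lactation, r of these 8 lay between -0.59 and 0.30. For bta-miR-331-3p it was -0.29 in lactation and 0.96 within the non-lactating libraries. For bta-miR-199b the highest were bta-let-7e (r = 0.75), bta-miR-204 (0.74), bta-miR-125b (0.69), bta-miR-199a-3p (0.68) and bta-miR-99a-3p (0.68). Its lowest were bta-miR-98 and bta-miR-425-3p (-0.68 and -0.66) and bta-miR-362-5p (-0.64).

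The family is known as a stromal one, so the members were set beside lists of miRNAs of other cell types. Over the 18 mesenchymal miRNAs, the median r with bta-miR-199a-3p was 0.45 (13 of 18 above 0), with bta-miR-199c 0.52 and with bta-miR-214 0.46, against medians of 0.02, 0.01 and 0.09 over all 233 miRNAs. For bta-miR-199b it was 0.04, and for bta-miR-199a-5p it was -0.37 (5 of 18 above 0). Over the 9 epithelial miRNAs the medians were -0.65, -0.49 and -0.60 for bta-miR-199a-3p, bta-miR-199c and bta-miR-214, -0.22 for bta-miR-199b and 0.10 for bta-miR-199a-5p. Single mesenchymal miRNAs varied widely, with r from -0.38 to 0.82 for bta-miR-199a-3p, from -0.31 to 0.71 for bta-miR-199c and from -0.53 to 0.83 for bta-miR-214. So did single epithelial ones, with r from -0.85 to 0.52, from -0.79 to 0.46 and from -0.88 to 0.59 in the same order. Of the 9 epithelial miRNAs, 2, 2 and 3 had an r above 0. For these 3 members the medians were 0.08, 0.21 and 0.06 over the 8 fibrosis-related miRNAs that reached 10 TPM and -0.62, -0.48 and -0.69 over the 2 endothelial ones. The libraries share stage, so these values are a description and do not assign the members to a cell type.

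In summed level the mesenchymal list and the family put the groups in different orders. Its sum is made up mostly of bta-miR-143, a miRNA of smooth muscle and other mesenchymal cells (mean 113547 TPM), bta-miR-10b (44431 TPM) and bta-miR-22-3p (21560 TPM). The sum was 124657 to 171780 TPM in HP, 189392 to 225517 TPM in LP, 159295 to 210871 TPM in HD and 205084 to 322681 TPM in LD. It was thus higher in LP than in HP without overlap, where 17.3% of the 388 single miRNAs did not overlap either. The summed TPM of the 5 members was 9832 to 15613 in HP and 7973 to 14777 in LP. In the non-lactating period the members summed to 13330 to 24743 TPM in HD and 9203 to 21804 TPM in LD. The epithelial sum was 38613 to 51590 TPM in lactating cows and 19119 to 46900 TPM in the non-lactating period, and no listed miRNA was at 0 in every library of a group. The part of cell makeup in the differences of the members was not tested.

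**Figure D5:**
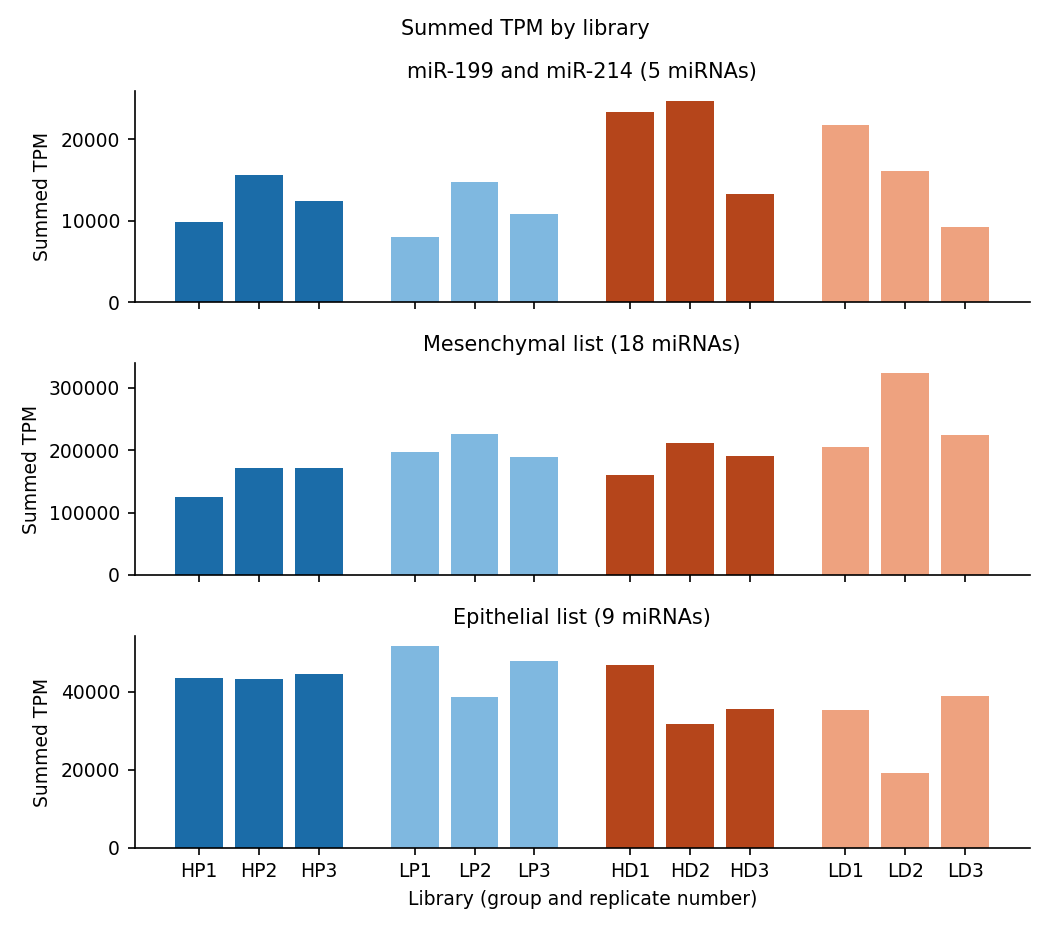
Summed TPM in each library of the 5 members, of the 18 mesenchymal miRNAs and of the 9 epithelial miRNAs, as bars from 0 coloured by group. The members sum highest in HD1, HD2 and LD1, while the mesenchymal sum is highest in LD2 at 322681 TPM and the epithelial sum is lowest there at 19119 TPM.

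Between the stages, 8 of the 18 mesenchymal miRNAs were called, a share near the 44.3% of all miRNAs. Of these, 6 fell in lactation, where 22.2% of all miRNAs did, namely bta-miR-379 (log2 fold change -2.56), bta-miR-382 (-1.41), bta-miR-127 (-1.32), bta-miR-455-3p (-1.32), bta-miR-218 (-0.72) and bta-miR-455-5p (-0.70), while bta-miR-22-5p (1.09) and bta-miR-22-3p (0.65) rose. Of those called, bta-miR-455-3p and bta-miR-455-5p are the 2 arms of 1 hairpin, as are bta-miR-22-3p and bta-miR-22-5p. Whether other listed miRNAs, bta-miR-379, bta-miR-382 and bta-miR-127 among them, come from a shared transcript was not examined. The counts are therefore not of independent genes. The rest of the list was not called, from bta-miR-100 (-0.93) to bta-miR-145 (0.85), with bta-miR-143 at -0.26 and bta-miR-10b at -0.11. The median of the list was -0.40 and that of all miRNAs -0.01. Of the 9 epithelial miRNAs, 6 rose in lactation, namely bta-miR-375 (3.11), bta-miR-200a (1.30), bta-miR-141 (1.28), bta-miR-200c (1.09), bta-miR-429 (0.69) and bta-miR-200b (0.65). From a separate cluster, bta-miR-183 (-1.88) and bta-miR-182 (-1.48) fell, and the median of the list was 0.69. Of 9 fibrosis-related miRNAs, bta-miR-29c (2.41) and bta-miR-29b (1.69), which are known to restrain collagen genes, rose and bta-miR-212 (-1.03) fell. The more abundant bta-miR-29a (mean 3661 TPM) was at 0.09 and not called. The level of bta-miR-212 was near the 3-read floor in lactating cows, at 0.577 ± 0.388 TPM, and 2.44 ± 1.08 TPM in non-lactating ones (mean and SD, n = 6 each). Both endothelial miRNAs rose, bta-miR-126-3p by 1.12 and bta-miR-126-5p by 0.73, and of 5 leukocyte miRNAs bta-miR-155 (-1.29) and bta-miR-142-5p (-0.77) fell. None of the 3 erythroid and 3 skeletal muscle miRNAs passed. The lists are short, and their counts are given beside the share of all miRNAs with no test.

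In the comparisons of phenotype, where no member was DE, some listed miRNAs were. In LP against HP, where 10.1% of all miRNAs were DE, they were bta-miR-379 (log2 fold change 2.86), bta-miR-382 (1.21), bta-miR-152 (0.93) and bta-miR-143 (0.85) of the 18 mesenchymal, bta-miR-34a (1.32) of the 9 fibrosis-related, bta-miR-144 (1.58) and bta-miR-451 (1.36) of the 3 erythroid, and bta-miR-150 (-1.69) of the 5 leukocyte miRNAs. In LD against HD, where 3.35% of all miRNAs were DE, they were bta-miR-21-3p (1.06), bta-miR-126-5p (1.15), bta-miR-142-3p (1.11) and bta-miR-142-5p (0.81), from the fibrosis-related, endothelial and leukocyte lists. Of all these, the adjusted p of limma was under 0.05 for bta-miR-379 alone (0.0149). No mesenchymal miRNA was DE in LD against HD, and no epithelial or skeletal muscle miRNA was DE in either comparison.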

How the data were processed

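Small RNA was sequenced from 12 mammary biopsies, 3 per group, each from a different cow. The authors used Cutadapt 2.8 and Trimmomatic 0.36 for trimming and kept reads of 18 to 30 nt. Mapping was by Bowtie 1.1.1 with up to 1 mismatch, on the ARS-UCD1.2 genome, and miRDeep2 counted the miRNAs of miRBase 22.0. The authors deposited RPM values, which they call TPM, as 1 table. Libraries were assigned to groups by their titles, and columns by the study's group abbreviations and replicate numbers. Depth was inferred from the step between values (tolerance 0.0055 TPM, at least 99.8% of values whole, though a stricter check did not accept whole reads) and was 6026797 to 23577942 reads. The step and limma scripts were tested on simulated data.

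For each mature miRNA the entry with the highest mean was kept. Libraries were scaled by median-of-ratios factors, and log2(scaled TPM + 1) was used. limma 3.58.1 (R 4.3.3) with a mean-variance trend was fitted over all 388 miRNAs, within each stage over its 6 libraries (LP over HP, LD over HD; DE at unadjusted p below 0.05 with a log2 fold change above 0.8 in either direction), and for stage and interaction over 12 libraries (called at a Benjamini-Hochberg adjusted p under 0.05). Ratios were tested by exact permutation with scipy 1.17.1 in Python 3.11.15 (numpy 2.4.6, pandas 2.3.3), and plots used matplotlib 3.10.9. Intervals and the 3-read floor cover counting error only.

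The members and the lists (mesenchymal, fibrosis-related, epithelial, endothelial, erythroid, leukocyte, skeletal muscle) were chosen with earlier results of these data known. Named were the members, listed miRNAs called in HP vs LP, HD vs LD or the stage comparison with the 3 most abundant mesenchymal ones, and for each member the 5 highest and 3 lowest correlations among miRNAs with a mean of at least 10 TPM. Mature sequences were not used here, so miRNAs with a shared seed were not named. Alternatives were no size factors, trimmed-mean factors, pseudocounts of 0.1 and 5, a mean of at least 10 TPM, every precursor entry, no trend, a replicate block, all 12 libraries in 1 fit, and leaving out each library, or HD3, LD2 and LD3 together, which was chosen after seeing the data.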

Additional observations from a re-analysis of the deposited data

Results flagged for a closer look

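In lactation, the value of bta-miR-214 in LP2 was 98.65 TPM, far from the other 5 libraries at 36.1 to 58.9 TPM. Its gap to the nearest value was 0.635 of the whole range, past the 95% critical value of Dixon's test for 6 samples. Of 12 sets of 6 libraries examined (the 5 members and the log2 arm ratio in each stage) 1 passed, and chance flags about 1 in 20. The bta-miR-214 difference between stages was -1.17 on the log2 scale with LP2 and -1.33 without it (adjusted p = 0.00105 by limma).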

How the results depend on the processing

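Of 575 values of members under the alternatives, 531 kept their direction and 517 also kept their side of the threshold. The planned count models were not run, because the deposited values are not counts and a stricter check did not accept the inferred reads as whole. With 3 libraries per group and at least 6026797 reads each, the spread between cows and not depth limits precision. Each library came from a different cow, so the replicate numbers do not pair samples of 1 animal. Same-numbered libraries correlated at -0.20, -0.26 and 0.01 between HP and LP and at 0.55, -0.11 and 0.50 between HD and LD. Between HP and HD the values were 0.11, 0.11 and 0.06, and between LP and LD they were -0.39, -0.07 and -0.21. The same number gave the highest correlation for numbers 1 and 3 in HD with LD and for 1 and 2 in HP with HD. With a replicate block the members called were 3 between stages (bta-miR-199c joined), 2 in HP over HD and 1 in LP over LD. Without it they were 2, 1 and 0. With the block the arm ratio between stages gave an exact sign-flip p of 0.0312. This is the lowest value that 6 differences can give, and it says only that all had the same sign. The differences are between different cows.

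With miRNAs of a mean of at least 10 TPM, 1 member was called in LP over LD, bta-miR-199c was at 0.011 in LD over HD and bta-miR-199b at 0.0079 in HP over HD. With all 12 libraries in 1 fit, bta-miR-199a-5p was at 0.026 in LP over HP and bta-miR-199c at 0.0072 in LD over HD. Without size factors, bta-miR-199a-5p was at -0.10 in HP over HD, the interactions of bta-miR-199a-3p and bta-miR-199b were 0.15 and 0.16, and r of the miR-199a arms was 0.87 in lactation, 0.94 in the non-lactating period and 0.46 over all 12 libraries. Without HD3, LD2 and LD3, 1 member was called between stages and the arm ratio difference was 0.17. These 3 were chosen for a low arm ratio, so the changes of that ratio and of bta-miR-199a-5p follow from the choice. As bta-miR-199a-3p is part of that ratio, its values without these 3 are not independent of the choice either. In that set bta-miR-199a-5p was at -0.45 between stages, -0.55 in HP over HD and -0.35 in LP over LD, bta-miR-199b was at 0.060 in LP over LD, and the interactions of bta-miR-199a-3p and bta-miR-199b were 0.17 and 0.20. The cause of the other changes was not tested.

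As single libraries were left out, members called ranged from 1 to 2 between stages, 0 to 1 in HP over HD and 0 to 1 in LP over LD. The arm ratio difference ranged from -0.036 to 0.27 between HP and LP and from 0.82 to 1.27 between stages. In LP over HP the ranges were -0.33 to 0.060 for bta-miR-199a-3p, -0.10 to 0.085 for bta-miR-199a-5p, -0.095 to 0.36 for bta-miR-199c and -0.28 to 0.35 for bta-miR-214. In LD over HD they were -0.38 to 0.072 for bta-miR-199a-3p and -0.31 to 0.16 for bta-miR-199c. For bta-miR-199b they were -0.12 to 0.045 between stages, -0.14 to 0.091 in HP over HD and -0.19 to 0.12 in LP over LD, and for bta-miR-199a-5p -0.52 to 0.48 in HP over HD. The interactions ranged from -0.26 to 0.19 for bta-miR-199a-3p, -0.18 to 0.16 for bta-miR-199b and -0.055 to 0.45 for bta-miR-199c.

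Over all 388 miRNAs, DE calls between HP and LP were 39, against 22 with a pseudocount of 5 and 24 without LP1. Between HD and LD they were 13 (38.5% lower in LD), against 3 (all lower) without size factors, 13 (53.8% lower) with trimmed-mean factors, 7 with a pseudocount of 5, 8 with a mean of at least 10 TPM, 6 without HD2, 36 without LD1 and 8 without LD2. Between stages 172 were called, against 114 with a mean of at least 10 TPM. In HP over HD 121 were called (52.9% lower), against 93 (63.4% lower) without size factors, where the median of all miRNAs moved from 0.01 to -0.15. In LP over LD 86 were called, against 45 without size factors, 57 without LP1, 34 without LP3, 43 without LD3 and 23 without HD3, LD2 and LD3.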
